A study of Homo sapiens with 3 samples.

Results

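The unfolded protein and ATF4 stress genes described here are 10 genes of the response to misfolded protein in the endoplasmic reticulum (ER) and to amino acid shortage: ERN1, ATF6, XBP1, HERPUD1, ATF4, DDIT3, DDIT4, TRIB3, CHAC1 and ASNS. They were chosen by name. A probe set, the group of probes that reads 1 transcript cluster, was used when the platform annotation gave it 1 gene symbol, and a gene with several such probe sets took their mean. All 10 were measured, by 11 probe sets, among 18417 genes in all. The study followed the chromatin remodeller CHD8, and its expression arrays set the transcript levels of C33A cells beside the promoters that CHD8 occupies. C33A is a human cervical carcinoma line. Total RNA came from 3 independent cultures, untreated and growing exponentially in DMEM with serum, and each culture was read on 1 Affymetrix Human Gene ST array. The arrays therefore hold 1 condition and no stressed or control arm, and no difference between conditions was tested.

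Misfolded protein in the ER is sensed by IRE1 (encoded by ERN1), ATF6 and PERK (encoded by EIF2AK3). IRE1 splices XBP1 mRNA so that it encodes an active transcription factor, ATF6 is cut and released to enter the nucleus, and PERK phosphorylates the initiation factor eIF2, which lowers general translation but favours that of ATF4. Kinases that sense amino acid shortage, double-stranded RNA or haem deficiency phosphorylate eIF2 as well, so that ATF4 serves a wider, integrated stress response. Activity of these factors is set largely after transcription, by splicing, cleavage and translation. Their transcript levels do not read that activity, and a gene-level signal does not separate spliced from unspliced XBP1 mRNA.

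These factors are known to act through short DNA elements, and the promoter stretches of members that hold the letters of such an element are printed here to show what was matched. No binding was measured. The windows are RefSeq promoters (GRCh38.p14) of 300 bases, from 250 before to 50 after a gene's start, and all 10 members have at least 1. The letters searched on both strands were TGATGNAA for the element that ATF4 binds together with C/EBP factors (CARE), CCAAT and CCACG 9 bases apart for the ER stress response element (ERSE), ATTGG and CCACG 1 base apart for its second form (ERSE-II), and TGACGTGG for the unfolded protein response element (UPRE). Exact matches lay in the windows of 4 members. Elements outside the windows or with other letters were not searched for, so a missing match does not show that an element is absent. Each stretch runs 5′ to 3′ on the gene's strand, with the match in capitals.
CHAC1, CARE on the opposite strand, chr15:40953236-40953295: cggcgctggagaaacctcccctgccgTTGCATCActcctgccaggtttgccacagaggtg
ASNS, CARE, chr7:97872443-97872502, minus strand: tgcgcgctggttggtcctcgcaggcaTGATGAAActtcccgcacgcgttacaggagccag
HERPUD1, CARE on the opposite strand, chr16:56931940-56931999: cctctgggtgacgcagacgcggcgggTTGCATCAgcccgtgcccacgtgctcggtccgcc
HERPUD1, ERSE-II, chr16:56931999-56932061: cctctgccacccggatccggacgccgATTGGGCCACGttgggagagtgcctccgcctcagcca
XBP1, ERSE, chr22:28800577-28800647, minus strand: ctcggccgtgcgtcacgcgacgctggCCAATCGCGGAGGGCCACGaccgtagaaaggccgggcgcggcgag

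The CARE letters began 209 bases before the start of CHAC1, 176 before that of HERPUD1 and 68 before 1 start of ASNS. The ERSE-II letters began 117 before HERPUD1 and the ERSE letters 52 before 1 start of XBP1. ASNS and XBP1 have 2 windows each, and window 2 of either gene held none of the letters searched. The shares given next are per window, so a member with several windows had more chances of a match. Of 35116 RefSeq promoter windows, 3.62% hold the CARE letters, 0.0769% the ERSE, 0.0541% the ERSE-II and 0.729% the UPRE letters. These elements were worked out on promoters of this very pathway, so the matches are a description. HERPUD1 was the member with letters of both kinds. GC content of the windows ran from 47.0% for ATF6 to 77.0% for TRIB3, with a median of 58.7% over all windows.

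All 10 stress genes gave a signal above that of genes that are silent in most tissues. Since the arrays carry no detection call, background was taken as 6.43 log2, a level that 95% of 455 protein-coding genes from 4 such families did not exceed (receptors for odour and taste, beta-defensins and keratin-associated proteins). Above it lay 10 of 10 members and 56.3% of all measured genes. The lowest value of any member on any array was 6.97 log2. The background bound decides part of this count. With the 99th percentile of the same families, 7.88 log2, 6 of 10 members were above, as were 37.2% of all genes, and ERN1, DDIT3, TRIB3 and CHAC1 were not.

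The members lay in the upper part of the signal. Their median level was 8.57 log2 against 6.91 for all genes, and the median of their percentiles among measured genes was 73.0. ATF4 lay in decile 10, with ATF6, XBP1, HERPUD1 and ASNS in decile 9. DDIT3 and DDIT4 lay in decile 7, and ERN1, CHAC1 and TRIB3 in decile 6. The place of ATF4 rests on the mean of 2 probe sets that disagree. By the lower of them, at 8.65 log2, ATF4 would lie in decile 8, below XBP1, ATF6, HERPUD1 and ASNS, and with the lowest probe set of every gene the median of the members was 8.31 log2 and their median percentile 69.6. Probe sets differ in how strongly they bind their transcripts, so a percentile is an approximate place within the signal and no member was tested against another. In bulk RNA, fewer expressing cells and less RNA per cell cannot be told apart.

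**Figure D1:**
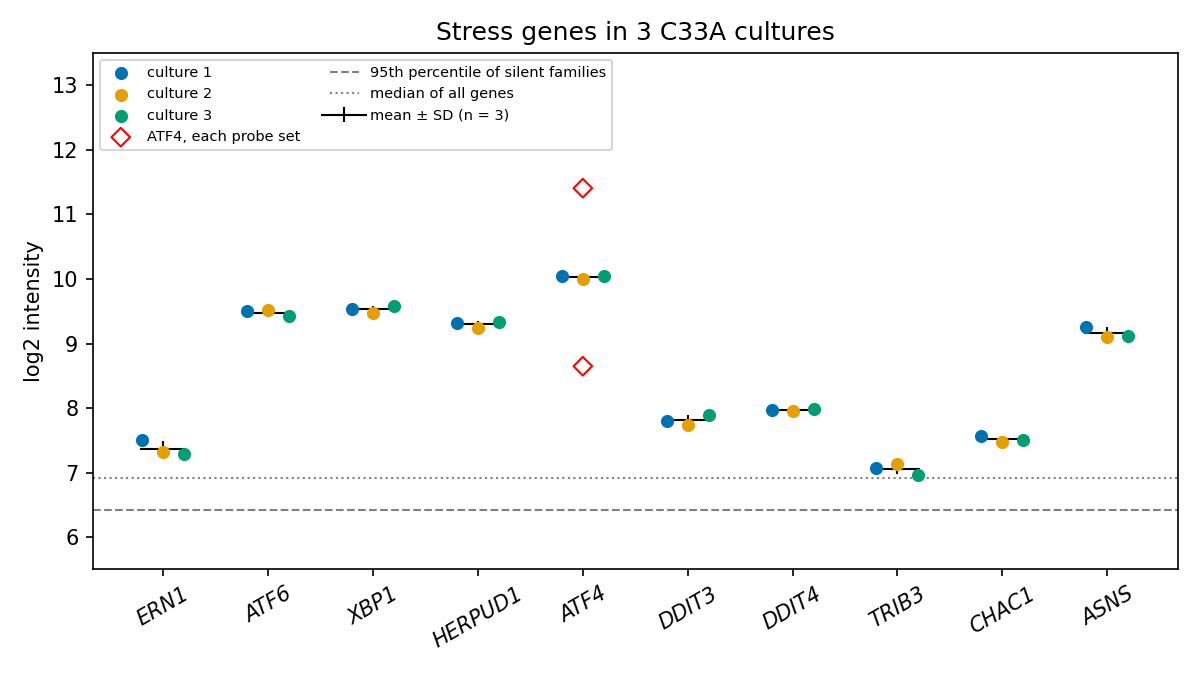
Log2 intensity (y axis) of each stress gene (x axis) in the 3 C33A cultures (coloured points), with the mean and SD over the arrays in black. All points lie above the dashed line, the 95th percentile of the silent families at 6.43, and ATF4 is the member whose probe sets (red diamonds) stand far apart, at 8.65 and 11.41.

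ER sensors and the ER branch. ERN1, the kinase and nuclease IRE1, was at 7.51, 7.32 and 7.28 log2 in cultures 1, 2 and 3, a mean of 7.37 ± 0.12 (SD, n = 3 arrays) at the 55.7th percentile. Culture 1 was the highest, and the spread of ERN1 was the widest of the members. ATF6, the membrane-bound factor, was at 9.50, 9.52 and 9.42 log2, a mean of 9.48 ± 0.05 (SD, n = 3) at the 86.0th percentile. Its cultures differed by 0.09 log2 at most. XBP1, the substrate of IRE1, was at 9.54, 9.48 and 9.58 log2, a mean of 9.53 ± 0.05 (SD, n = 3) at the 86.6th percentile, and HERPUD1, an ER membrane protein that helps to clear misfolded proteins, was at 9.32, 9.24 and 9.34 log2, a mean of 9.30 ± 0.05 (SD, n = 3) at the 83.7th percentile. Both had their lowest value in culture 2 and their highest in culture 3. XBP1 and HERPUD1 carry the ERSE and ERSE-II letters printed above.

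ATF4, the factor translated when eIF2 is phosphorylated, had the highest signal of the members when its probe sets were averaged, but not by the lower probe set alone. The mean of its 2 probe sets was 10.039, 10.005 and 10.039 log2 in cultures 1, 2 and 3, 10.03 ± 0.02 (SD, n = 3) at the 91.7th percentile. The probe set annotated with the transcript NM_001675 gave 8.65 ± 0.02 log2 (SD, n = 3) and the one annotated with NM_182810 alone gave 11.41 ± 0.03 (SD, n = 3). The distance between them, 2.76 log2, is wide against the culture spread of either, and among 769 genes with several probe sets 13.4% had a larger distance, the median being 0.55. Either probe set by itself put ATF4 above the 99th percentile of the silent families. RefSeq lists 4 ATF4 pseudogenes, and whether their transcripts add to either signal was not tested. The other 9 members have 1 probe set each.

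Downstream of ATF4, the stress-induced factors and effectors were near the middle of the signal. DDIT3, which encodes the pro-apoptotic factor CHOP, was at 7.80, 7.74 and 7.90 log2, a mean of 7.81 ± 0.08 (SD, n = 3) at the 61.8th percentile. DDIT4, an inhibitor of mTORC1 signalling also called REDD1, was at 7.97, 7.96 and 7.99 log2, a mean of 7.97 ± 0.01 (SD, n = 3) at percentile 64.2. The cultures differed by 0.03 log2 for DDIT4, the narrowest range of the members. TRIB3, a pseudokinase that feeds back on ATF4 and restrains AKT, was at 7.07, 7.13 and 6.97 log2, a mean of 7.06 ± 0.08 (SD, n = 3) at the 51.9th percentile. CHAC1, an enzyme that breaks down glutathione, was at 7.57, 7.47 and 7.50 log2, a mean of 7.52 ± 0.05 (SD, n = 3) at the 57.7th percentile. TRIB3 was the member closest to the silent families, 0.63 log2 above their 95th percentile, and even its lowest culture was above that bound.

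ASNS, asparagine synthetase, stood apart from these 4 effectors in decile. It was at 9.26, 9.11 and 9.12 log2, a mean of 9.16 ± 0.09 (SD, n = 3) at the 81.9th percentile. Culture 1 was the highest, by 0.14 log2 over the next. Of the members with the CARE letters, ASNS and HERPUD1 lay in decile 9 and CHAC1 in decile 6.

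The cultures lay close together for the stress genes, as for most genes. The distance from the lowest to the highest array was 0.03 to 0.23 log2 over the members, with a median of 0.10 against 0.16 for all genes. None of the 10 had a distance over 0.5 log2, against 4.14% of all genes, and none over 0.3, against 19.1%. With 10 members, a count of 0 at the first threshold is near the share of all genes. At 0.3 the share of all genes is not matched for signal, and all members lie in deciles 6 to 10. Neither count is a result about the members. Spread falls with signal, from a median SD of 0.14 log2 in decile 1 to 0.04 in decile 10. Set against their own deciles, 4 members had an SD below the median (ATF4, ATF6, DDIT4 and CHAC1) and 6 had 1 at or above it. DDIT4 lay at the 3.28th percentile of SD in its decile and ASNS at the 80.2th.

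**Figure D2:**
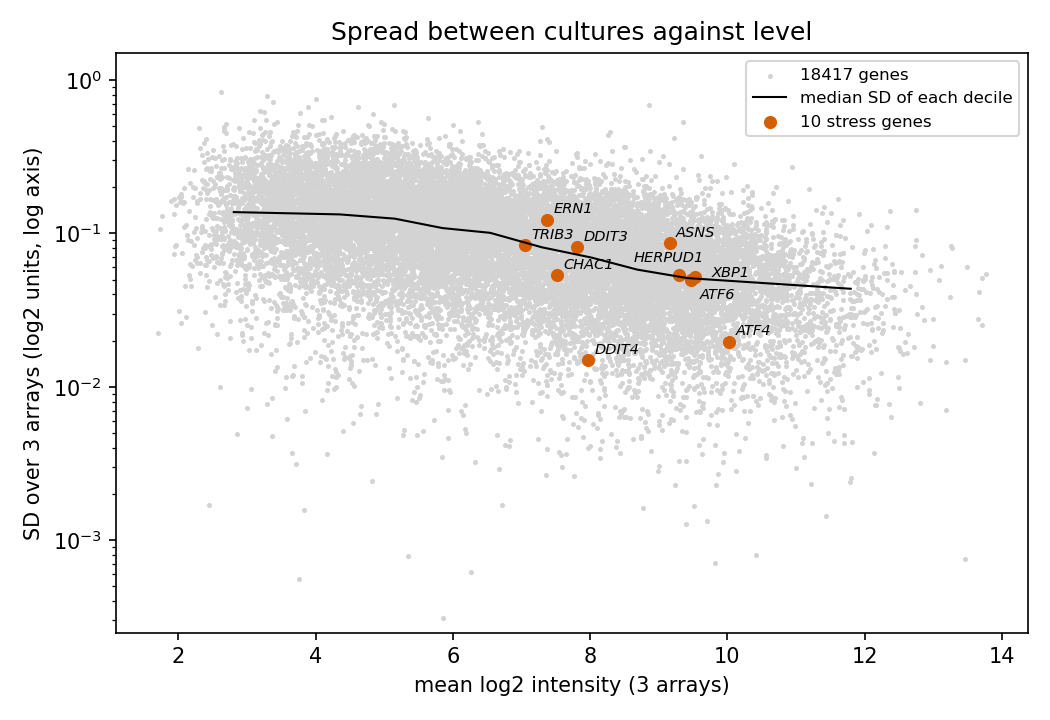
SD over the 3 arrays (y axis, log axis, log2 units) against mean log2 intensity (x axis) for 18417 genes in grey and the 10 stress genes in orange, with the median SD of each decile as a line; 1 gene with an SD of 0 has no place on a log axis. The members scatter on both sides of the line, from DDIT4 at 0.01 to ERN1 at 0.12.

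The members did not share 1 order of the cultures. Culture 1 was highest for ERN1, CHAC1 and ASNS, culture 3 for XBP1, HERPUD1, DDIT3 and DDIT4, and culture 2 for ATF6 and TRIB3. For ATF4 cultures 1 and 3 were level at 10.039 log2, and the probe set annotated with NM_182810 alone was highest in culture 3. Culture 2 was lowest for 7 members and culture 3 for 3. The median deviation of the members from their own means was 0.02, -0.05 and -0.002 log2 on arrays 1, 2 and 3, and over all genes it was 0.009, -0.004 and -0.004. ATF6 and TRIB3, which were highest in culture 2, were the members that went against the others there. With 1 array per culture no difference between cultures was tested.

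**Figure D3:**
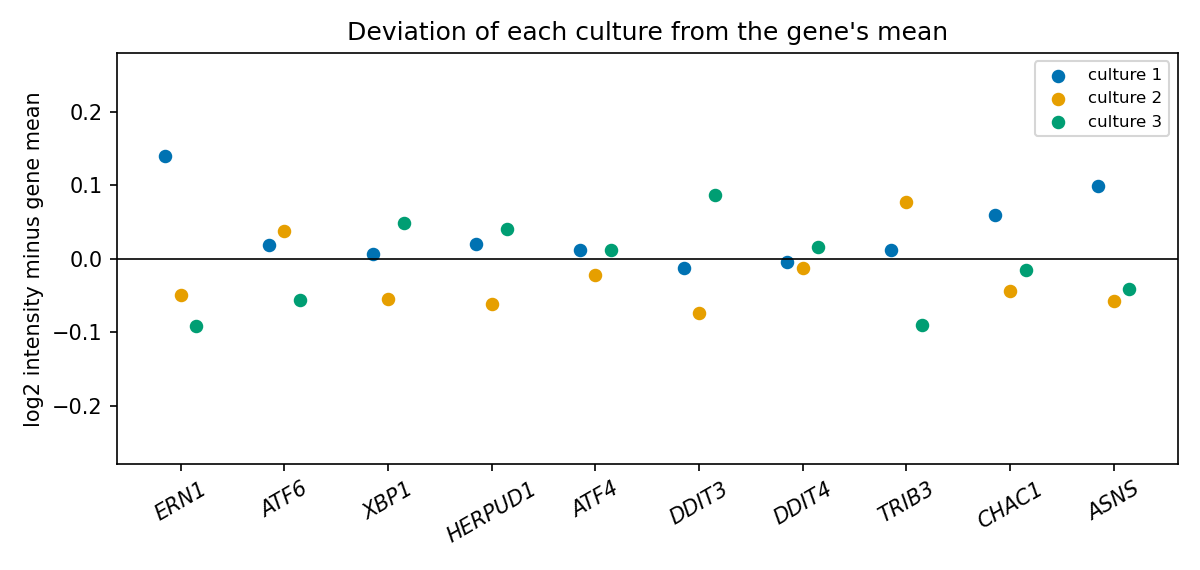
Log2 intensity of each culture minus the gene's mean over the 3 cultures (y axis) for each stress gene (x axis). Culture 2 (orange) lies below 0 for 8 of the 10 genes, and ERN1 in culture 1, at 0.14, is the point farthest from 0.

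The other genes of these pathways set the members in context. The 10 pathway lists, which overlap, hold 105 measured genes beside the members, with a median of 9.35 log2. Of the 105, 93 (88.6%, against 56.3% of all genes) were above the silent families. The counts of each list below stand beside that same 56.3% of all genes. With the 99th percentile of the silent families as the bound, chosen for the lists after seeing the data, 76 of the 105 were above, against 37.2% of all genes. Among ER sensors and their processing enzymes, 6 of 7 measured genes were above, from EIF2AK3 (PERK) at 7.76 ± 0.04 log2 and ERN1 up to MBTPS1, a protease that cuts ATF6, at 10.47 ± 0.05 (SD, n = 3 each). ERN2, the IRE1 of gut and airway epithelium, was not above, at 5.95 ± 0.11. All 17 genes of the list of eIF2 kinases, eIF2, its exchange factor and its phosphatase, which holds ATF4 too, were above, and EIF2S1, the phosphorylated subunit, was the highest at 10.78 ± 0.07 log2 (SD, n = 3). PERK was the lowest of that list. The kinases for the other stresses were at 10.16 ± 0.02 (EIF2AK1), 10.32 ± 0.07 (EIF2AK2) and 9.86 ± 0.03 log2 (EIF2AK4, all SD, n = 3).

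ER chaperones and folding enzymes had a median of 10.43 log2 over 18 measured genes, of which 17 were above the silent families. PDIA6, a protein disulphide isomerase, was the highest at 12.59 ± 0.02 log2 and ERO1B, an ER oxidase, the lowest at 6.33 ± 0.08, which is not above (SD, n = 3 each). HSPA5, the chaperone BiP that holds the sensors inactive, was at 11.96 ± 0.04 log2 (SD, n = 3) and was named after its value was seen. All 18 measured genes of ER-associated degradation, among them HERPUD1, were above, from DERL3 at 6.79 ± 0.20 to the ATPase VCP at 11.90 ± 0.01 (SD, n = 3 each).

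The ATF4 targets were listed by role, and the lists overlapped in signal. The 13 genes of aminoacyl-tRNA synthetases and tRNA export were all above the silent families, with a median of 11.16 log2, from CARS1 at 9.05 ± 0.05 to NARS1 at 12.36 ± 0.01 (SD, n = 3 each). Amino acid transporters, 7 of 7 above, had a median of 10.11 log2, with SLC7A11, the cystine transporter, the lowest at 6.70 ± 0.06 and SLC38A2 the highest at 12.40 ± 0.04 (SD, n = 3 each). Amino acid synthesis genes, ASNS among them, had a median of 9.83 log2, with 10 of 11 above. ALDH18A1, of proline synthesis, was the highest at 11.24 ± 0.02, and ALDH1L2, at 3.81 ± 0.03 (SD, n = 3 each), was not above. The list of factors and effectors had a median of 7.26 log2 over 17 genes, near the 6.91 of all genes. Of these 17, 12 (70.6%, against 56.3% of all genes) were above. With the 99th percentile as the bound, 4 of 17 (DDIT4, ATF5, CEBPG and EIF4EBP1) were above, against 37.2% of all genes. DDIT3, DDIT4, TRIB3 and CHAC1 belong to it. EIF4EBP1, a repressor of cap-dependent translation, was the highest at 9.40 ± 0.08 (SD, n = 3). The 5 that were not above were ATF3 at 6.24 ± 0.10, NUPR1 at 5.87 ± 0.23, VLDLR at 5.72 ± 0.06, FGF21 at 5.24 ± 0.12 and STC2 at 4.90 ± 0.11 log2 (SD, n = 3 each). The metabolic genes ALDH1L2, SLC7A11, CTH and PCK2 lay below the median of this list, the last 2 at 6.87 log2, and EIF4EBP1 lay above CARS1 and ASNS. The lists were not tested against each other, and many synthetases, transporters and chaperones are used by every growing cell.

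**Figure D4:**
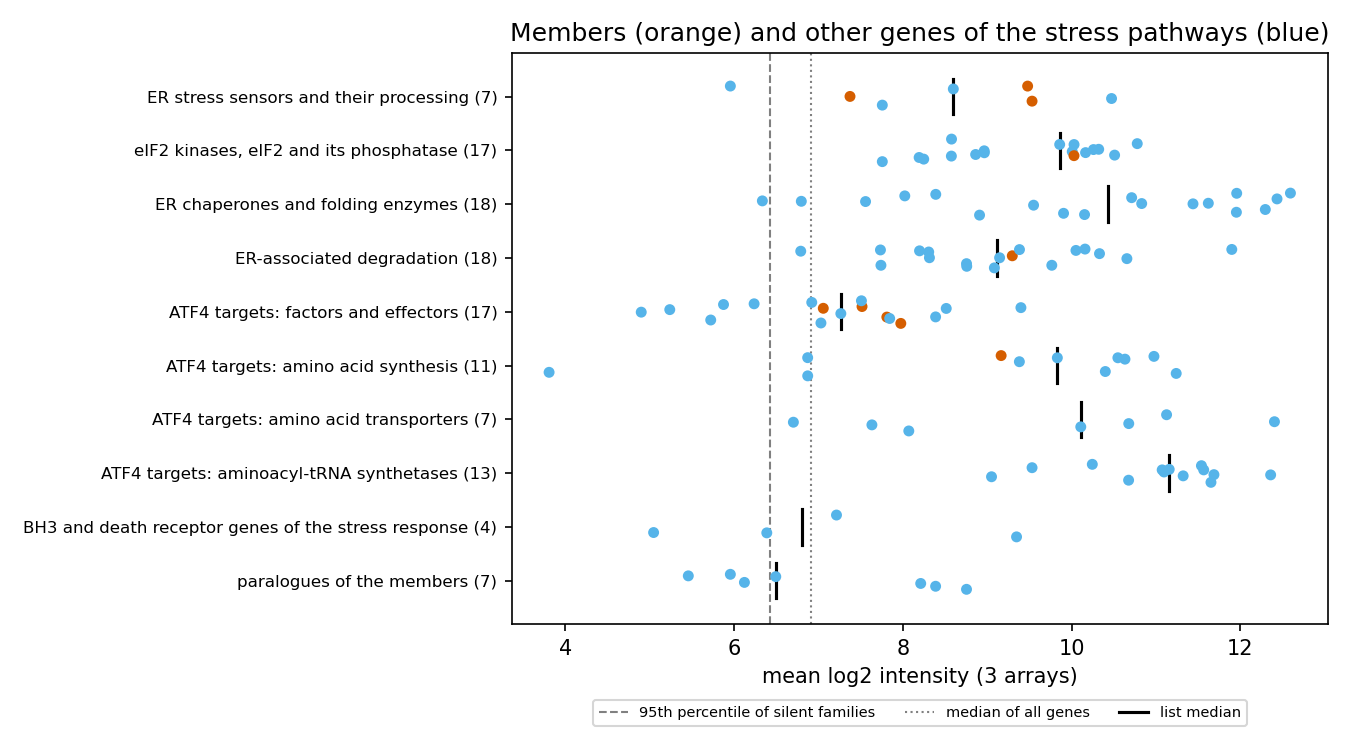
Mean log2 intensity over 3 arrays (x axis) of each measured gene in 10 lists of the stress pathways (y axis, number of genes in brackets; vertical scatter within a list has no meaning), with members in orange, other genes in blue and the list median as a black bar. The dashed line is the 95th percentile of the silent families (6.43) and the dotted line the median of all genes (6.91); synthetases have a median of 11.16 and ATF4-target factors and effectors one of 7.26.

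GDF15, a secreted stress cytokine on the list of ATF4 targets, was the one gene of the 105 whose arrays differed by over 0.5 log2. It was at 7.22, 6.96 and 7.61 log2 in cultures 1, 2 and 3, a range of 0.64. Its order of cultures was 3 above 1 above 2. XBP1, HERPUD1, DDIT3 and DDIT4, whose ranges were 0.03 to 0.16, have that order too. So does the ATF4 probe set annotated with NM_182810 alone, while the mean of both ATF4 probe sets was level in cultures 1 and 3. The remaining members do not have it. Since 3 arrays of 1 condition allow few orders, a shared order is not a likeness, and none was computed. Of the cell death genes tied to the response, TNFRSF10B, the death receptor DR5, was the highest at 9.35 ± 0.07 log2, followed by BBC3 (PUMA) at 7.21 ± 0.20 (SD, n = 3 each). BCL2L11 (BIM) at 6.39 ± 0.05 and PMAIP1 (NOXA) at 5.04 ± 0.04 (SD, n = 3 each) were not above the silent families. BCL2L11 was at the bound, with culture 3 at 6.44 log2.

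Paralogues of the members were measured for 7 of 8 genes, and 4 (57.1%, against 56.3% of all genes) were above the silent families: HERPUD2 at 8.75 ± 0.08, ATF5 at 8.39 ± 0.18, TRIB1 at 8.21 ± 0.07 and CHAC2 at 6.49 ± 0.07 log2 (SD, n = 3 each). ERN2, TRIB2 at 6.12 ± 0.03 and DDIT4L at 5.46 ± 0.22 (SD, n = 3 each) were not. CHAC2 was at the bound, with culture 1 at 6.42 log2.

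ATF6, XBP1 and ERN1 are on the list of genes whose promoters carried CHD8 in these cells, while ATF4, DDIT3, DDIT4, HERPUD1, ASNS, TRIB3 and CHAC1 are not on it. Of all measured genes 9.58% are on that list. That share is not matched for signal, and all members lie in deciles 6 to 10. The study describes most CHD8 targets as genes of medium or high transcription. Neither for the members nor for the wider lists was a share among genes of like signal computed. Membership is therefore given as a description, and an excess of CHD8 targets was not tested. Among the members, the CHD8 genes are ERN1, ATF6 and XBP1, in deciles 6, 9 and 9, and members off the list span deciles 6 to 10. On the wider lists membership was mixed. The sensor genes ERN2, EIF2AK3 (PERK), MBTPS1 and MBTPS2 are not on the CHD8 list. ATF4 targets on it are the synthetases NARS1, GARS1, EPRS1, IARS1, MARS1 and TARS1 and the transporters SLC7A5, SLC38A2 and SLC1A5. PHGDH, ALDH18A1 and CCPG1, the last of them not measured, are on it too. So are EIF2S1 and EIF2B1 of the eIF2 list and the folding enzyme PDIA4. From ER-associated degradation EDEM2, ERLEC1, UBE2J1 and VCP are on it, and none of the cell death genes or paralogues is. Absence from the list does not show absence of CHD8, and whether each member's promoter was probed was not tested. No searched window of ERN1, ATF6 or XBP1 holds the CARE letters, and 1 window of XBP1 holds the ERSE letters printed above.

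The labelled cell type was checked by markers. KRT18 was the 1 of 5 simple epithelial markers above the silent families, at 7.75 ± 0.11 log2 (SD, n = 3), and KRT8, KRT19, EPCAM and CDH1 were not, nor was KRT5, while KRT14 was, at 6.86 ± 0.08 (SD, n = 3). Of the other cell types, 2 of 4 leukocyte markers (PTPRC at 8.82 and CD68 at 6.90 log2), 1 of 4 fibroblast markers (COL1A1 at 7.24) and 0 of 3 endothelial markers were above. The share of all genes above that bound was 56.3%. With the 99th percentile of the silent families as the bound, 0 of 5 simple epithelial and 0 of 2 squamous markers were above. PTPRC was the only marker above it, against 37.2% of all genes. The markers thus did not bear out the epithelial label. Correlation between arrays over all probe sets was 0.993 to 0.994.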

How the data were processed

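RNA of 3 C33A cultures was labelled and read on the Gene 1.0 ST design of Affymetrix. Signals were read out in the manufacturer's console program, after which the authors applied Robust Multichip Average (RMA) normalization, which brings the arrays to 1 distribution, and then oneChannelGUI, and deposited log2 intensities for each probe set. For program versions and the genome build the sources used here give nothing. The deposited values carry no detection call. RMA equalizes arrays, so a shift of all genes between cultures would not be seen, and the number of arrays limits the precision. Whether the arrays share a batch is not given.

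Of 33297 probe sets, 19460 carry 1 symbol and were used, 1754 carry several and 12083 are not named in the platform annotation. Probe sets were named by Entrez identifier, then symbol, giving 18417 genes, 18392 of them through RefSeq (GRCh38.p14). A first run also named retired symbols through synonyms (18395 genes) and kept non-coding genes in the silent families (480 genes, bound 6.41 log2). Both were dropped after its output was seen and are given as alternatives. Levels are the mean ± SD of 3 arrays, in 10 deciles of the mean. A percentile is the share of measured genes with a lower mean. No test was run, since there is 1 group. Named are all members, the highest and lowest gene of each list and any gene not above the silent families, and all paralogues. HSPA5, EIF2AK1, EIF2AK2, EIF2AK4, GDF15, BBC3, CEBPG, CTH and PCK2 were named after their values were seen, and the markers are those of fixed cell type lists. Genes of the wider lists set beside the CHD8 list were named by whether they are on it. Members and lists were chosen with earlier results of these data known. Membership of the CHD8 list comes from the study's supplementary list of target genes, matched by accession, then symbol. Alternatives changed the arrays, probe sets, centring, background bound, gene universe and range threshold. The functions were tested on simulated data. Python 3.11.15, NumPy 2.4.6, pandas 2.3.3 and matplotlib 3.10.9 were used.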

Additional observations from a re-analysis of the deposited data

How the results depend on the processing

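Levels were computed under each alternative, and 42 of the levels and percentiles could not or did not differ from the value reported, as for members with 1 probe set, so no tally of stability is given. With the 99th percentile of the silent families, 6 in place of 10 members were above the bound, and 4 in place of 12 of the 17 ATF4-target factors and effectors. Of all genes, 37.2% in place of 56.3% were above it. With protein-coding RefSeq genes as the universe, the median percentile of the members was 71.2 in place of 73.0. With the highest probe set of each gene, ATF4 was at 11.41 log2 in place of 10.03, and with the lowest, added after seeing the data, at 8.65, in decile 8 and below 4 members. The lowest probe sets gave a median level of 8.31 log2 and a median percentile of 69.6. Leaving out each array in turn, the median level of the members was 8.55 to 8.59 log2, their median percentile 72.7 to 73.4, 10 of 10 were above the bound and 0 had a range over 0.5 log2. With the wider silent families or the synonym naming of the first run, both added after seeing the data, 10 of 10 were above. No paired analysis was possible because the arrays form 1 group. Signal near the silent families limits what can be said of TRIB3, ERN1, CHAC1 and DDIT3.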
